A study of Mus musculus with 12 samples.

Results

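The Hox genes are the homeobox transcription factor genes of the 4 mammalian Hox clusters, and here they were taken as every probe whose gene name on the array is Hox followed by a cluster letter (a to d) and a paralogue number. That rule found 43 of 55681 probes, for 39 of 36406 named features: 11 genes of cluster a, 10 of b, 9 of c and 9 of d. RNA of mouse embryonic stem cells was read on 12 one-colour arrays, 4 a group, from samples the series describes as independent. The groups were Id1KO_Zrf1KD (Id1 knockout cells, infected with lentiviral vectors for Zrf1 short hairpins and selected with puromycin), Id1KO (Id1 knockout cells) and WT (wild type). All cells grew in medium with 15% serum and LIF (leukaemia inhibitory factor), and Id1KO cells carrying a control hairpin were not analysed here, so infection and selection cannot be told apart from the loss of Zrf1. The labels name 1 wild type and 1 Id1 knockout source, so every difference of Id1KO from WT is also a difference between those cell lines.

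Hox proteins bind DNA through the homeodomain, usually with Pbx and Meis partners, and set position along the head to tail axis. Within each cluster the genes lie in the order of their paralogue numbers, low numbers acting nearer the head and high numbers nearer the tail and in the limbs. In embryonic stem cells the clusters are known to be held largely silent by Polycomb complexes, and retinoic acid, Wnt and Cdx factors open them during differentiation. Id1 lacks a DNA-binding region and blocks basic helix-loop-helix factors, whose site is the E-box. Zrf1, listed as Dnajc2 on the array, is a J-domain protein known to bind ubiquitylated histone H2A, the mark left by Polycomb repressive complex 1.

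In build mm9, as the array files give it, the Hox probes span chr6:52105392-52209039 (cluster a), chr11:96057854-96228510 (b), chr15:102759058-102867272 (c) and chr2:74509248-74603059 (d). RefSeq promoters were at hand for 22 of the 39 genes, in 24 entries of build GRCm38.p6. The 250 bases before the start are shown for Hoxb1 and Hoxc4, the first detected on all Id1KO arrays and no other and the second lower in Id1KO than in WT cells, and for Hoxa11, which rose after Zrf1 knockdown. Each reads 5′ to 3′ on the strand of the gene, and capitals mark matches on either strand to any of 5 motifs. The E-box was searched as CANNTG. The motif bound by Pbx and Hox together was searched as TGATNNAT. The site of nuclear receptors such as the retinoic acid receptors was searched as AGGTCA. The TATA box was searched as TATAAA. The core of the Cdx site was searched as TTTATG.
Hoxb1 (chr11:96365508-96365757, + strand): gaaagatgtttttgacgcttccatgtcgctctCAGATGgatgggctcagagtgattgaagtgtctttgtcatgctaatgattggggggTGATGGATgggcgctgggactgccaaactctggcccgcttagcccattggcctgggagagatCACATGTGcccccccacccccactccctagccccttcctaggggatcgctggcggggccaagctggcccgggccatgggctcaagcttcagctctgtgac
Hoxc4 (chr15:103034145-103034394, + strand): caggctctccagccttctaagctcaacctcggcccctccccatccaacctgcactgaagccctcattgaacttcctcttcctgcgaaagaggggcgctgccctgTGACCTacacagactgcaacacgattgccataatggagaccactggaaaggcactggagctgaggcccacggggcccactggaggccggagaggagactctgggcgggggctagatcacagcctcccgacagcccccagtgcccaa
Hoxa11 (chr6:52245811-52246060, - strand): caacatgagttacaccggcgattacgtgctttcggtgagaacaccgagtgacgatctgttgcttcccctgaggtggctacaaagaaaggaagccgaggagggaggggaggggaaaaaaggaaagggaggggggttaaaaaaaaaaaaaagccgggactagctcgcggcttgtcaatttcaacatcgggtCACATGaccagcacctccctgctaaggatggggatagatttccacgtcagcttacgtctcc
The Hoxb1 window held 3 E-box matches, 2 of which overlap, and 1 match to the Pbx and Hox motif. The Hoxc4 window held 1 nuclear receptor match on the reverse strand and no E-box, and the Hoxa11 window held 1 E-box. An E-box match stood in 70.8% of the 24 Hox windows, against 66.2% of 32851 windows of the same length before all RefSeq genes. The shares were 25% against 14% for the nuclear receptor motif, 16.7% against 7.7% for the Pbx and Hox motif, 16.7% against 12.4% for the TATA box and 20.8% against 10.8% for the Cdx core. A match is only a run of letters, and the median GC content was 58.6% in the Hox windows and 52.4% in all windows.

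The homeobox is the stretch that Hox genes share, so probes inside it are the ones that could pick up more than 1 gene. Translating the 60-base probes found some that reach the codons of the DNA-recognition helix of the homeodomain. Those of Hoxc11 and Hoxd10 are shown in mm9, in the sense of the transcript, with the codons the search found in capitals.
Hoxc11 (chr15:102787022-102787081, + strand): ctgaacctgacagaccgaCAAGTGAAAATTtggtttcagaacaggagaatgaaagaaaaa
Hoxd10 (chr2:74532280-74532339, + strand): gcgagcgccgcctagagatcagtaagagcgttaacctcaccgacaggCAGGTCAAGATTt
The Hoxb3 probe was the only 1 of the 43 whose listed transcripts included another Hox gene, Hoxd3. Compared with each other, probes of different Hox genes shared runs of at most 11 bases (median 9). They were not compared with the whole transcripts of other Hox genes, so these runs cannot show whether a probe picks up another gene. The Hoxb3 probe that lists Hoxd3 had a longest shared run of only 8 bases. Hoxc11 did not pass the filter described next, and Hoxd10 did.

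A probe counted as detected on an array where the scanner software called it well above background. Of the 39 Hox genes, 24 were detected on all 4 Id1KO_Zrf1KD arrays, 16 on all 4 Id1KO arrays and 25 on all 4 WT arrays. The counts on no array of a group were 10, 12 and 8. On all 4 Id1KO arrays 8 of 10 genes were detected in b, 3 of 11 in a, 3 of 9 in c and 2 of 9 in d. In WT cells 5 of 10 were detected on all arrays in b, 8 of 11 in a, 7 of 9 in c and 5 of 9 in d. A gene was tested if a probe was detected on all 4 arrays of at least 1 group, which left 32 of the 39. The 7 that were not tested were Hoxa2, Hoxb8, Hoxc8 and Hoxd3, detected on no array, Hoxa5 on 1, Hoxb3 on at most 2 and Hoxc11 on 3. Because a gene could pass through the group in which it was high, counts over the 32 describe those genes only.

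Levels below are log2 of the processed signal relative to the 75th percentile of the same array, so 0 is a probe as bright as that percentile, and most Hox genes lie below it. They are comparable between groups for 1 gene, not between genes. Fold changes are from a limma fit over 22590 genes of the whole array, and a gene is said to have risen or fallen where its Benjamini-Hochberg adjusted p was under 0.05. Where a group had no detected array, the fold is given as "at least" against the lowest detectable level. The processed signal has background subtracted and stretches differences of dim genes, so the smallest fold from 3 other scalings (normexp correction, quantile normalization and the authors' deposited values) is given where it is over 1.5 times smaller or where a call was lost. In bulk RNA, more cells with a Hox gene on and more RNA per cell cannot be told apart.

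All 14 embryonic stem cell markers tested were detected on all 12 arrays. Dnajc2 averaged -0.27 ± 0.08 in Id1KO_Zrf1KD cells, 1.89 ± 0.11 in Id1KO cells and 2.0 ± 0.12 in WT cells (SD, n = 4 each), lower in the arrays labelled as knockdown. Id1 averaged 0.68 ± 0.16 in Id1KO_Zrf1KD cells, 1.23 ± 0.31 in Id1KO cells and 0.86 ± 0.20 in WT cells (SD, n = 4 each), and this probe checks nothing, since no source used here places it against the deleted part. Between 54.8% and 59.3% of the spots of an array were well above background. The arrays lay on 3 slides, each with all 3 groups, and every Hox gene called in a comparison had the same sign within each slide (25 of 25, 23 of 23 and 25 of 25 genes in Id1KO vs WT, Id1KO_Zrf1KD vs Id1KO and Id1KO_Zrf1KD vs WT). Because the genes were called from these same arrays, that agreement was largely fixed beforehand and is no separate test of a slide effect.

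Comparing Id1KO with WT cells asks how the clusters differ without Id1. Of the 32 genes 8 were higher in Id1KO cells, where the share of all genes called higher was 42.5%, and 17 were lower, where it was 29.6%. The median log2 fold change was -0.67, against 0.15 over all genes. The counts by cluster differed, though that difference was not tested. In cluster b 6 genes rose and 2 fell, in a 1 rose and 6 fell, in c none rose and 4 fell, and in d 1 rose and 5 fell. Among those that rose, Hoxb1 and Hoxb5 passed the filter only through the Id1KO arrays. Hoxd12, the 1 of cluster d, was detected on no array of either group compared. Hoxa11, the 1 of cluster a, was detected on 1 of 4 arrays in each. Among those that fell, Hoxa4, Hoxa9, Hoxd4 and Hoxd9 passed it only through the WT arrays. The cluster b counts (6 and 2) were the same under all 3 other scalings. In cluster a 1 rose and 4 fell with normexp, and none rose and 6 fell under quantile normalization and in the deposited values. In cluster c 6 fell under quantile normalization and in the deposited values, and in cluster d 2 rose and 4 fell with normexp. The median over all 32 was -0.04 with normexp and -0.27 in the deposited values. Leaving out Id1KO replicate 1 gave -0.33.

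Comparing Id1KO_Zrf1KD with Id1KO cells, written below as after knockdown, asks how Zrf1 knockdown changes the clusters in the absence of Id1. Of the 32 genes 15 rose, where 32.3% of all genes did, and 8 fell, where 39.8% did. The median log2 fold change was 0.46, against -0.09 over all genes. In cluster b 1 gene rose and 6 fell, in a 5 rose and 1 fell, in c 4 rose and none fell, and in d 5 rose and 1 fell. By paralogue number, 10 of the 15 tested genes of groups 9 to 13 rose and none fell, in groups 5 to 8 3 rose and 3 fell, and in groups 1 to 4 2 rose and 5 fell. Of the 10 that rose, Hoxa11, Hoxd10 and Hoxd12 passed the filter only through the Id1KO_Zrf1KD arrays, where they were high. Hoxd9, also among them, was detected on no array of either group compared. Hoxb1 and Hoxb5, which fell, passed the filter only through the Id1KO arrays. With normexp the median was -0.04 and 10 genes rose and 10 fell, and of the 15 in groups 9 to 13 6 rose and 1 fell, while quantile normalization and the deposited values each gave 11 and 0 there. Without Id1KO replicate 1 the median was 0.10. The Id1KO arrays enter both comparisons, and the values of each are given side by side below.

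Cluster b held 6 of the 8 genes that were higher in Id1KO cells. Hoxb1 gives a segment of the hindbrain its identity and answers early to retinoic acid. Its levels were -5.19, -5.36, -5.3 and -5.39 in Id1KO_Zrf1KD cells, -3.81, -4.09, -3.77 and -3.93 in Id1KO cells, and -6.8, -6.81, -7.16 and -7.04 in WT cells. The 3 groups did not overlap, and the gene was detected on all 4 Id1KO arrays and on no other. It was at least 2.39-fold higher (adjusted p = 3.9e-10, 1.44-fold at the smallest of the other scalings) in Id1KO than in WT cells, and at least 2.12-fold lower (adjusted p = 1.8e-07, 1.15-fold at the smallest of the other scalings) in Id1KO_Zrf1KD than in Id1KO cells. Its probe is printed at 10 spots an array, and most others at 1.

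Hoxb2, which works downstream of Hoxb1 in the hindbrain, read -3.51, -3.23, -3.24 and -3.22 in Id1KO_Zrf1KD cells, -2.71, -2.36, -2.48 and -2.32 in Id1KO cells, and -4.12, -5.1, -4.82 and -4.76 in WT cells. Id1KO arrays were highest and WT arrays lowest, with no overlap. The gene was 4.7-fold higher (log2 difference 2.23 ± 0.18 SE, adjusted p = 5.9e-07, 1.57-fold at the smallest of the other scalings) in Id1KO than in WT cells, and 1.78-fold lower (log2 difference -0.83 ± 0.18 SE, adjusted p = 0.0014, 1.17-fold at the smallest of the other scalings) after Zrf1 knockdown. Hoxb4, known for expanding blood stem cells, had levels of -2.24, -2.14, -2.06 and -2.13 in Id1KO_Zrf1KD cells, -1.1, -1.22, -0.39 and -1.31 in Id1KO cells, and -1.67, -1.58, -1.46 and -1.65 in WT cells. Again Id1KO arrays lay above both other groups, and here the Id1KO_Zrf1KD arrays lay below WT. Hoxb4 was 1.5-fold higher (log2 difference 0.59 ± 0.17 SE, adjusted p = 0.0081) in Id1KO than in WT cells and 2.2-fold lower (log2 difference -1.14 ± 0.17 SE, adjusted p = 8.8e-05) in Id1KO_Zrf1KD than in Id1KO cells, with Id1KO replicate 3 well above its group.

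Hoxb5, which acts in the placing of the forelimb and in the enteric nervous system, read -5.42, -4.34, -5.16 and -4.74 in Id1KO_Zrf1KD cells, -3.75, -4.0, -3.54 and -3.67 in Id1KO cells, and -6.08, -6.11, -7.45 and -6.79 in WT cells. No WT array and 2 of the 4 Id1KO_Zrf1KD arrays detected it, against all 4 Id1KO arrays. It was at least 2.67-fold higher (adjusted p = 7.7e-06, 1.42-fold at the smallest of the other scalings) in Id1KO than in WT cells and 2.26-fold lower (log2 difference -1.18 ± 0.31 SE, adjusted p = 0.0055, 1.16-fold at the smallest of the other scalings) in Id1KO_Zrf1KD than in Id1KO cells. Hoxb6 read -3.06, -3.01, -2.85 and -3.09 in Id1KO_Zrf1KD cells, -2.56, -2.69, -2.59 and -2.41 in Id1KO cells, and -4.16, -4.08, -4.67 and -4.5 in WT cells. The order was the same, Id1KO above Id1KO_Zrf1KD above WT, with no overlap. It was 3.46-fold higher (log2 difference 1.79 ± 0.12 SE, adjusted p = 1.9e-07, 1.43-fold at the smallest of the other scalings) in Id1KO than in WT cells. After knockdown it was 1.36-fold lower (log2 difference -0.44 ± 0.12 SE, adjusted p = 0.0079, 1.03-fold at the smallest of the other scalings), and that call was lost under quantile normalization (adjusted p = 0.33) and in the deposited values (adjusted p = 0.57). Hoxb7 was 1.71-fold higher (log2 difference 0.77 ± 0.12 SE, adjusted p = 0.00011) in Id1KO than in WT cells and 1.72-fold lower (log2 difference -0.78 ± 0.12 SE, adjusted p = 1e-04) after knockdown.

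The tested genes of the tail end of cluster b, Hoxb9 and Hoxb13, were lower in Id1KO cells. Hoxb9, a gene of the thoracic skeleton, had levels of -0.92, -1.63, -1.64 and -1.47 in Id1KO_Zrf1KD cells, -3.07, -2.64, -3.09 and -3.13 in Id1KO cells, and -1.83, -1.44, -1.82 and -1.69 in WT cells. Id1KO arrays lay below both other groups, and Id1KO_Zrf1KD and WT arrays overlapped. It was 2.45-fold lower (log2 difference -1.29 ± 0.17 SE, adjusted p = 3.8e-05, 1.61-fold at the smallest of the other scalings) in Id1KO than in WT cells and 2.97-fold higher (log2 difference 1.57 ± 0.17 SE, adjusted p = 8.2e-06, 1.81-fold at the smallest of the other scalings) in Id1KO_Zrf1KD than in Id1KO cells. Hoxb13, which limits the growth of the tail and acts in the prostate, read -1.03, -0.81, -0.61 and -0.97 in Id1KO_Zrf1KD cells, -0.65, -0.4, -0.74 and -0.77 in Id1KO cells, and 0.91, 0.94, 1.17 and 1.1 in WT cells. WT arrays were all above 0 and the others all below. Its level was 3.19-fold lower (log2 difference -1.67 ± 0.11 SE, adjusted p = 1.1e-07) in Id1KO than in WT cells, and the difference after knockdown was -0.22 ± 0.11 SE (log2, adjusted p = 0.097).

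Cluster a was mostly lower in Id1KO cells, with Hoxa11 apart. Hoxa10, a gene of the lumbar vertebrae and the uterus, read -3.6, -3.53, -3.28 and -3.13 in Id1KO_Zrf1KD cells, -3.84, -4.36, -4.24 and -4.3 in Id1KO cells, and -3.1, -2.84, -3.04 and -3.07 in WT cells. All Id1KO arrays were below the rest and 1 of 4 detected it. It was 2.26-fold lower (log2 difference -1.18 ± 0.13 SE, adjusted p = 9.4e-06, 1.17-fold at the smallest of the other scalings) in Id1KO than in WT cells and 1.74-fold higher (log2 difference 0.8 ± 0.13 SE, adjusted p = 0.00021, 1.04-fold at the smallest of the other scalings) after knockdown, a rise that did not pass with normexp (adjusted p = 0.48). Hoxa13, a gene of the digits and the urogenital tract, read -3.41, -3.49, -3.71 and -3.9 in Id1KO_Zrf1KD cells, -5.28, -4.41, -5.15 and -4.56 in Id1KO cells, and -2.89, -2.38, -2.61 and -2.57 in WT cells. The Id1KO arrays lay lowest, WT arrays highest, and Id1KO_Zrf1KD arrays between them, and 1 of 4 Id1KO arrays detected it. Hoxa13 was 4.72-fold lower (log2 difference -2.24 ± 0.2 SE, adjusted p = 1.5e-06, 1.61-fold at the smallest of the other scalings) in Id1KO than in WT cells and 2.34-fold higher (log2 difference 1.22 ± 0.2 SE, adjusted p = 0.00021, 1.12-fold at the smallest of the other scalings) in Id1KO_Zrf1KD than in Id1KO cells, and this rise had an adjusted p of 0.063 with normexp.

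Hoxa11, which shapes the forearm and the uterus, had levels of -2.48, -2.31, -2.13 and -2.2 in Id1KO_Zrf1KD cells, -4.7, -4.25, -4.76 and -4.49 in Id1KO cells, and -4.96, -5.06, -4.79 and -4.85 in WT cells. All Id1KO_Zrf1KD arrays stood apart above the rest, and only 1 of 4 Id1KO arrays and 1 of 4 WT arrays detected it. The gene was 4.82-fold higher (log2 difference 2.27 ± 0.12 SE, adjusted p = 2.0e-08, 1.64-fold at the smallest of the other scalings) in Id1KO_Zrf1KD than in Id1KO cells and 6.21-fold higher (log2 difference 2.64 ± 0.12 SE, adjusted p = 6.0e-09, 1.97-fold at the smallest of the other scalings) in Id1KO_Zrf1KD than in WT cells. Id1KO arrays were above WT arrays by 0.36 ± 0.12 SE (log2, adjusted p = 0.015), a call lost with quantile normalization (0.85) and the deposited values (0.72). Its probe too has 10 spots an array. The antisense transcript of the locus, Hoxa11as, read -0.37, -0.48, -0.48 and -0.46 in Id1KO_Zrf1KD cells, -2.01, -1.59, -1.48 and -1.68 in Id1KO cells, and -1.93, -1.9, -2.3 and -2.19 in WT cells. It was 2.37-fold higher (log2 difference 1.24 ± 0.12 SE, adjusted p = 2.8e-06) in Id1KO_Zrf1KD than in Id1KO cells. Probes read 1 strand each, so the sense and antisense transcripts were measured apart.

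Among the other tested genes of cluster a, Hoxa3 was 1.71-fold lower in Id1KO than in WT cells, Hoxa9 1.52-fold lower and Hoxa4, which no Id1KO array detected, at least 1.55-fold lower, and Hoxa6 and Hoxa7 did not pass. Hoxa7 rose after knockdown (log2 fold change 0.49, adjusted p = 0.0027). The calls of Hoxa4 and Hoxa9 in Id1KO vs WT were lost with normexp (adjusted p = 0.87 and 0.86). Hoxa4 averaged -5.41 ± 0.48 in Id1KO_Zrf1KD cells, -5.06 ± 0.29 in Id1KO cells, and -4.21 ± 0.18 in WT cells (SD, n = 4 each). Hoxa9 averaged -4.83 ± 0.4 in Id1KO_Zrf1KD cells, -4.5 ± 0.28 in Id1KO cells, and -3.9 ± 0.22 in WT cells (SD, n = 4 each), and its second probe gave a log2 fold change of -1.42 (adjusted p = 0.018) in place of -0.61. Hoxa3, which averaged -2.99 ± 0.13 in Id1KO_Zrf1KD cells, -2.71 ± 0.09 in Id1KO cells, and -1.94 ± 0.1 in WT cells (SD, n = 4 each), fell after knockdown (log2 fold change -0.28, adjusted p = 0.0069), and the sign turned under quantile normalization (0.06, adjusted p = 0.53) and in the deposited values (0.01, adjusted p = 0.82). The second probe of Hoxa13 did not pass the filter.

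**Figure D1:**
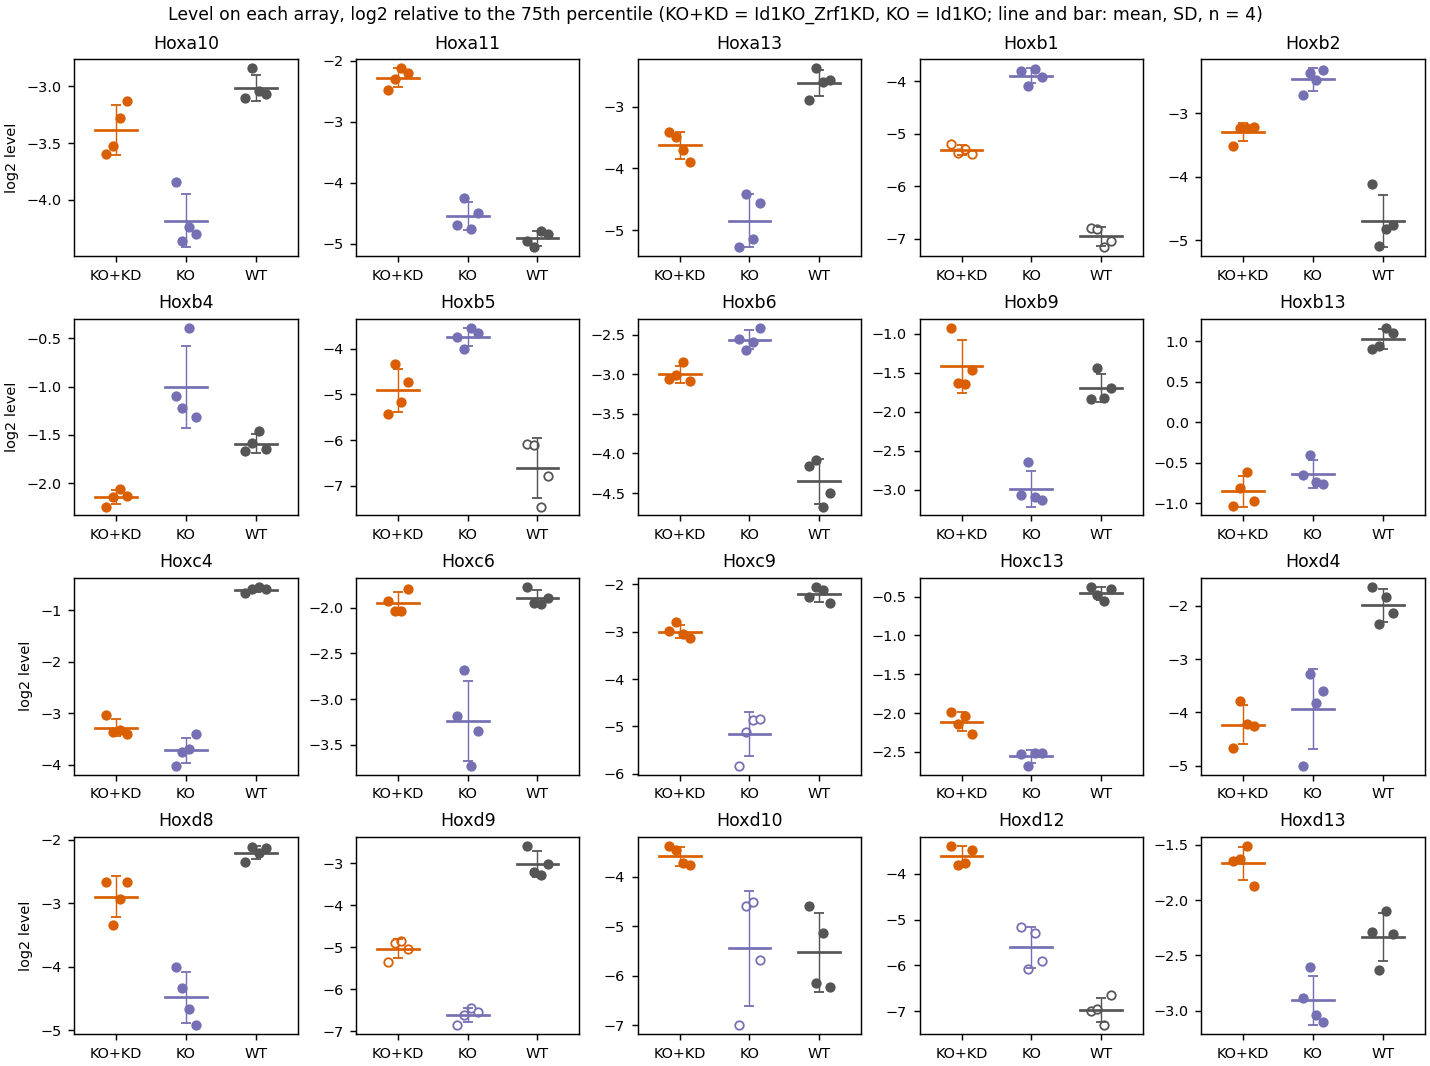
Level of 20 Hox genes on each array (points), log2 relative to the 75th percentile of the array, for Id1KO_Zrf1KD (KO+KD), Id1KO (KO) and WT cells, with the mean and SD of 4 arrays. Open points belong to a group with no array well above background. Id1KO arrays are highest for Hoxb1, Hoxb2, Hoxb4, Hoxb5 and Hoxb6, and lowest for Hoxa10, Hoxa13, Hoxb9, Hoxc6, Hoxc9, Hoxc13, Hoxd8 and Hoxd9.

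In cluster c no gene rose in Id1KO cells. Hoxc4, a gene of the neck vertebrae, read -3.03, -3.36, -3.32 and -3.41 in Id1KO_Zrf1KD cells, -4.02, -3.76, -3.7 and -3.41 in Id1KO cells, and -0.67, -0.58, -0.54 and -0.59 in WT cells. WT arrays were far above both other groups. It was 8.75-fold lower (log2 difference -3.13 ± 0.12 SE, adjusted p = 1.7e-09, 3.72-fold at the smallest of the other scalings) in Id1KO than in WT cells, and it stayed low after knockdown: 6.43-fold lower (log2 difference -2.68 ± 0.12 SE, adjusted p = 6.4e-09, 3.63-fold at the smallest of the other scalings) in Id1KO_Zrf1KD than in WT cells. Its rise over Id1KO was 0.44 ± 0.12 SE (log2, adjusted p = 0.006), with 1 Id1KO array level with an Id1KO_Zrf1KD array, and with normexp the adjusted p was 0.79. Hoxc13, known for hair and nail formation, read -1.99, -2.14, -2.04 and -2.27 in Id1KO_Zrf1KD cells, -2.53, -2.68, -2.51 and -2.52 in Id1KO cells, and -0.38, -0.48, -0.56 and -0.4 in WT cells. The 3 groups did not overlap, with WT arrays highest and Id1KO arrays lowest. It was 4.3-fold lower (log2 difference -2.1 ± 0.07 SE, adjusted p = 6.2e-10, 2.66-fold at the smallest of the other scalings) in Id1KO than in WT cells and 1.37-fold higher (log2 difference 0.45 ± 0.07 SE, adjusted p = 0.00014) after knockdown, and 3.14-fold lower (log2 difference -1.65 ± 0.07 SE, adjusted p = 4.4e-09) in Id1KO_Zrf1KD than in WT cells.

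Hoxc6, a gene of the thoracic skeleton, read -1.93, -2.04, -2.04 and -1.79 in Id1KO_Zrf1KD cells, -3.19, -2.68, -3.73 and -3.35 in Id1KO cells, and -1.77, -1.95, -1.96 and -1.89 in WT cells. Id1KO_Zrf1KD and WT arrays overlapped, and all Id1KO arrays were lower. It was 2.54-fold lower (log2 difference -1.34 ± 0.18 SE, adjusted p = 3.5e-05, 1.55-fold at the smallest of the other scalings) in Id1KO than in WT cells and 2.44-fold higher (log2 difference 1.29 ± 0.18 SE, adjusted p = 5.1e-05, 1.51-fold at the smallest of the other scalings) in Id1KO_Zrf1KD than in Id1KO cells, and Id1KO_Zrf1KD differed from WT by -0.06 (log2, 95% confidence interval -0.44 to 0.33, adjusted p = 0.8). Hoxc9, which sets the thoracic motor columns of the spinal cord, read -2.99, -2.8, -3.05 and -3.14 in Id1KO_Zrf1KD cells, -5.83, -5.11, -4.86 and -4.84 in Id1KO cells, and -2.27, -2.05, -2.12 and -2.4 in WT cells. No Id1KO array detected it and all arrays of the other groups did. It was at least 5.75-fold lower (adjusted p = 1.2e-07, 1.78-fold at the smallest of the other scalings) in Id1KO than in WT cells and at least 3.33-fold higher (adjusted p = 1.7e-06, 1.29-fold at the smallest of the other scalings) after knockdown. Hoxc5, Hoxc10 and Hoxc12 did not pass in any comparison, while in Id1KO vs WT Hoxc5 passed under quantile normalization (adjusted p = 0.047) and in the deposited values (0.046), and Hoxc12 in the deposited values (0.038). Their SD reached 1.52 in Id1KO cells, where replicate 1 was the lowest array for each, and that replicate was lowest of its group for 15 of the 32 Hox genes, against 31.6% of all genes.

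In cluster d some genes were detected throughout in Id1KO_Zrf1KD cells alone. Hoxd10, a gene of the hindlimb motor neurons, read -3.38, -3.47, -3.73 and -3.76 in Id1KO_Zrf1KD cells, -6.99, -4.6, -4.5 and -5.68 in Id1KO cells, and -4.6, -6.14, -5.14 and -6.23 in WT cells. All 4 Id1KO_Zrf1KD arrays detected it, no Id1KO array and 1 WT array. It was at least 2.08-fold higher (adjusted p = 0.0086, 1.21-fold at the smallest of the other scalings) in Id1KO_Zrf1KD than in Id1KO cells, with an adjusted p of 0.079 with normexp, and Id1KO and WT arrays overlapped. Hoxd12, expressed in the developing limb, read -3.39, -3.81, -3.77 and -3.47 in Id1KO_Zrf1KD cells, -5.16, -6.07, -5.28 and -5.91 in Id1KO cells, and -6.99, -6.95, -7.3 and -6.65 in WT cells. The 4 Id1KO_Zrf1KD arrays detected it and no other did. Hoxd12 was at least 2.34-fold higher (adjusted p = 7.1e-06, 1.19-fold at the smallest of the other scalings) in Id1KO_Zrf1KD than in Id1KO cells, and in Id1KO vs WT it was higher in the fit (adjusted p = 0.00014, 1.14-fold at the smallest of the other scalings), with no fold given because it was not well above background in either group. Hoxd11 was detected on the same 4 arrays, and its difference from Id1KO did not pass (adjusted p = 0.1). It passed under quantile normalization (adjusted p = 0.012) and in the deposited values (adjusted p = 0.0015), and with normexp the log2 fold change was -0.04.

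Hoxd13, a gene of the digits, read -1.65, -1.63, -1.51 and -1.87 in Id1KO_Zrf1KD cells, -2.88, -2.6, -3.04 and -3.1 in Id1KO cells, and -2.29, -2.63, -2.1 and -2.31 in WT cells. Id1KO_Zrf1KD arrays were above all others, and Id1KO and WT arrays overlapped at 1 array. It was 2.36-fold higher (log2 difference 1.24 ± 0.13 SE, adjusted p = 7.9e-06) in Id1KO_Zrf1KD than in Id1KO cells and 1.59-fold higher (log2 difference 0.67 ± 0.13 SE, adjusted p = 0.0011) in Id1KO_Zrf1KD than in WT cells. Hoxd8 had levels of -2.66, -3.34, -2.93 and -2.66 in Id1KO_Zrf1KD cells, -4.01, -4.34, -4.67 and -4.92 in Id1KO cells, and -2.35, -2.12, -2.21 and -2.13 in WT cells. The 3 groups did not overlap, with Id1KO arrays lowest and WT arrays highest, and 1 of 4 Id1KO arrays detected it. It was 4.87-fold lower (log2 difference -2.28 ± 0.2 SE, adjusted p = 1.1e-06, 1.67-fold at the smallest of the other scalings) in Id1KO than in WT cells and 3.0-fold higher (log2 difference 1.59 ± 0.2 SE, adjusted p = 2.4e-05, 1.28-fold at the smallest of the other scalings) after knockdown.

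Hoxd9, a gene of the limb and the lumbar spinal cord, read -5.36, -4.9, -4.85 and -5.03 in Id1KO_Zrf1KD cells, -6.85, -6.62, -6.44 and -6.54 in Id1KO cells, and -2.59, -3.21, -3.28 and -3.03 in WT cells. WT arrays alone detected it. It was at least 3.53-fold lower (adjusted p = 6.0e-09, 1.61-fold at the smallest of the other scalings) in Id1KO than in WT cells. Between Id1KO_Zrf1KD and Id1KO it was higher in the fit (adjusted p = 5.1e-06, 1.02-fold at the smallest of the other scalings), with no fold given because it was not well above background in either group, and normexp turned the sign (log2 fold change -0.03, adjusted p = 0.84). Hoxd4, a gene of the neck vertebrae that answers to retinoic acid, read -4.67, -3.78, -4.21 and -4.26 in Id1KO_Zrf1KD cells, -5.0, -3.28, -3.83 and -3.6 in Id1KO cells, and -1.64, -2.33, -1.83 and -2.14 in WT cells. All WT arrays were above the rest, and the other groups overlapped. It was 3.85-fold lower (log2 difference -1.95 ± 0.34 SE, adjusted p = 0.00031, 1.67-fold at the smallest of the other scalings) in Id1KO than in WT cells and 4.75-fold lower (log2 difference -2.25 ± 0.34 SE, adjusted p = 0.00012, 1.86-fold at the smallest of the other scalings) in Id1KO_Zrf1KD than in WT cells. Hoxd1 averaged -3.31 ± 0.12 in Id1KO_Zrf1KD cells, -3.04 ± 0.17 in Id1KO cells, and -2.74 ± 0.15 in WT cells (SD, n = 4 each). It fell in Id1KO vs WT (adjusted p = 0.02, 0.51 with normexp) and in Id1KO_Zrf1KD vs Id1KO (adjusted p = 0.035), where the log2 fold change of -0.27 became 0.12 under quantile normalization (adjusted p = 0.41) and 0.05 in the deposited values (adjusted p = 0.53).

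Set against WT, Id1KO_Zrf1KD cells had 11 Hox genes higher, where 32.4% of all genes were, and 14 lower, where 32.2% were. The median was -0.46, against -0.02 over all genes. The higher genes were 3 of cluster a, 4 of b, none of c and 4 of d. Of the 4 in b, Hoxb1 and Hoxb5 passed the filter only through the Id1KO arrays, which are not compared here. Hoxb1 was detected on no array of either group, and the call of Hoxb5 was lost with normexp (adjusted p = 0.083). Hoxa11 and Hoxd10 to Hoxd13 were above WT, Hoxd12 at least 2.91-fold higher (adjusted p = 1.1e-07, 1.62-fold at the smallest of the other scalings). Hoxa11 and Hoxd10 to Hoxd12 passed the filter only through the Id1KO_Zrf1KD arrays. Hoxa4, Hoxa9, Hoxd4 and Hoxd9, which were lower than in WT cells, passed it only through the WT arrays. Hoxb2 was 2.64-fold higher (log2 difference 1.4 ± 0.18 SE, adjusted p = 3.4e-05, 1.34-fold at the smallest of the other scalings) and Hoxb6 2.55-fold higher (log2 difference 1.35 ± 0.12 SE, adjusted p = 2.3e-06, 1.38-fold at the smallest of the other scalings). Hoxc4, Hoxc13, Hoxb13 and Hoxd4 stayed between 3.14-fold and 6.43-fold lower than in WT cells.

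**Figure D2:**
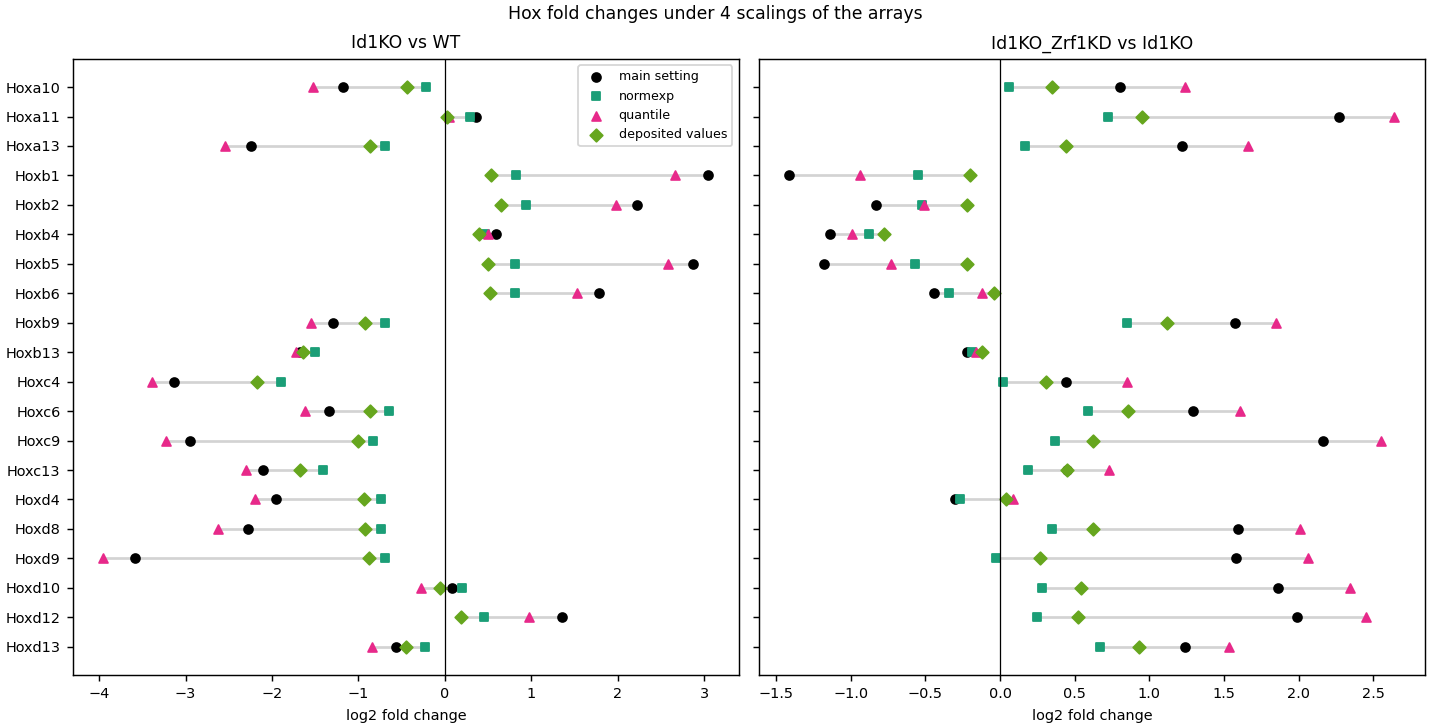
Log2 fold change (x axis) of 20 Hox genes (rows) in Id1KO vs WT (left) and Id1KO_Zrf1KD vs Id1KO (right) with 4 scalings of the arrays: the processed signal (main setting), normexp, quantile normalization and the deposited values. Grey lines join the values of 1 gene; on the right Hoxd9 is -0.03 with normexp, and Hoxd4 takes both signs.

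Among genes beside the clusters, Evx1, a homeobox gene next to Hoxa13, read -2.28, -2.22, -2.37 and -2.24 in Id1KO_Zrf1KD cells, -6.85, -6.62, -6.35 and -6.33 in Id1KO cells, and -6.55, -6.74, -5.46 and -6.32 in WT cells. It was detected on the Id1KO_Zrf1KD arrays alone, and was at least 5.94-fold higher (adjusted p = 3.3e-08, 2.08-fold at the smallest of the other scalings) than in Id1KO cells. Calcoco2, an autophagy receptor gene beyond Hoxb13, was 4.49-fold lower (log2 difference -2.17 ± 0.06 SE, adjusted p = 1.9e-10) in Id1KO than in WT cells and 3.02-fold higher (log2 difference 1.6 ± 0.06 SE, adjusted p = 2.5e-09) after knockdown. Ttll6, its neighbour, was 2.44-fold lower (log2 difference -1.29 ± 0.07 SE, adjusted p = 3.7e-08) in Id1KO_Zrf1KD than in Id1KO cells. Of 14 genes tested from a list of neighbours, which counts Hoxa11as inside cluster a among them, 7 rose and 4 fell in Id1KO vs WT (5 and 6 in the deposited values), and 4 rose and 5 fell in Id1KO_Zrf1KD vs Id1KO. Over all genes tested, 42.5% rose and 29.6% fell in the first comparison, and 32.3% rose and 39.8% fell in the second, so these counts do not set the neighbours apart. Inside the clusters the array has 40 probes with other names, of which 17 were kept. In Id1KO vs WT 12 of the 17 were higher and 3 lower, where 42.3% and 28.1% of all kept probes were. In Id1KO_Zrf1KD vs Id1KO 3 were higher and 12 lower, where 30.3% and 40.6% were. Most of the 17 lie in cluster b, and several read the same transcribed locus, so they are not separate genes. Within 100 kb outside the clusters 27 other probes were kept, and the counts leaned the same way. Of these 27, 18 were higher and 3 lower in Id1KO vs WT, and 3 were higher and 21 lower after knockdown. Most of the 27 lie in a short stretch beside cluster a (chr6:52052961-52064181) and share a few locus names. They are not separate genes either, and their counts do not describe the flanks of all 4 clusters.

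The counts of the lists that follow stand beside 42.5% of all genes higher and 29.6% lower in Id1KO vs WT, and 32.3% higher and 39.8% lower after knockdown. Of 14 inducers of Hox genes and ParaHox genes, 10 were tested. After knockdown 6 rose and 1 fell, with a median log2 fold change of 1.13, and with normexp 6 rose and 3 fell, with a median of 0.46. In Id1KO vs WT 2 rose and 5 fell (2 and 2 with normexp, with a median of 0). Cdx1, a caudal homeobox factor that acts on Hox genes, read 1.51, 1.56, 1.71 and 1.63 in Id1KO_Zrf1KD cells, -0.93, -0.81, -0.84 and -0.82 in Id1KO cells, and 1.54, 1.44, 1.71 and 1.64 in WT cells. Id1KO_Zrf1KD and WT arrays overlapped, far above the Id1KO arrays. It was 5.41-fold lower (log2 difference -2.44 ± 0.07 SE, adjusted p = 1.3e-10) in Id1KO than in WT cells and 5.47-fold higher (log2 difference 2.45 ± 0.07 SE, adjusted p = 2.0e-10) after knockdown. Cdx2, its relative, was detected on the Id1KO_Zrf1KD arrays alone and was at least 4.51-fold higher (adjusted p = 3.5e-06, 1.73-fold at the smallest of the other scalings) than in Id1KO cells. Gsx1, a ParaHox gene, was 5.43-fold higher (log2 difference 2.44 ± 0.16 SE, adjusted p = 1.4e-07, 1.88-fold at the smallest of the other scalings) and Wnt5a, a Wnt ligand, 4.54-fold higher (log2 difference 2.18 ± 0.12 SE, adjusted p = 3.9e-08, 2.39-fold at the smallest of the other scalings). Wnt8a, a Wnt of the gastrula, was at least 12.8-fold higher (adjusted p = 6.8e-09, 3.12-fold at the smallest of the other scalings) in Id1KO than in WT cells and 2.01-fold lower (log2 difference -1.01 ± 0.18 SE, adjusted p = 0.00043) after knockdown.

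Of 18 retinoic acid genes tested, 8 rose and 6 fell in Id1KO vs WT (where 42.5% and 29.6% of all genes did, and 5 and 6 in the deposited values), and 12 rose and 2 fell in Id1KO_Zrf1KD vs Id1KO. Cyp26a1, the enzyme that clears retinoic acid and is itself induced by it, averaged -0.23 ± 0.09 in Id1KO_Zrf1KD cells, -1.0 ± 0.1 in Id1KO cells, and -3.09 ± 0.18 in WT cells (SD, n = 4 each). It was 4.24-fold higher (log2 difference 2.08 ± 0.09 SE, adjusted p = 3.9e-09, 2.32-fold at the smallest of the other scalings) in Id1KO than in WT cells and 1.71-fold higher (log2 difference 0.78 ± 0.09 SE, adjusted p = 1.3e-05) after knockdown. Rarb, a receptor gene that retinoic acid induces, was 2.33-fold higher (log2 difference 1.22 ± 0.06 SE, adjusted p = 1.4e-08, 1.49-fold at the smallest of the other scalings) in Id1KO than in WT cells and differed by -0.08 (log2, adjusted p = 0.26) after knockdown. Rxra, a partner of the retinoic acid receptors, was 2.2-fold lower (log2 difference -1.13 ± 0.08 SE, adjusted p = 1.8e-07) in Id1KO than in WT cells and 2.21-fold higher (log2 difference 1.14 ± 0.08 SE, adjusted p = 1.9e-07) after knockdown.

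As a background, 42.5% of the genes tested rose and 29.6% fell in Id1KO vs WT, and 32.3% rose and 39.8% fell after knockdown. Of 9 Hox cofactor genes 1 rose and 5 fell in Id1KO vs WT, and 5 rose and 3 fell after knockdown. Pknox2, a homeodomain partner of the same family as Meis, was 2.03-fold lower (log2 difference -1.02 ± 0.07 SE, adjusted p = 1.7e-07) in Id1KO than in WT cells. Meis1 was 1.74-fold higher (log2 difference 0.8 ± 0.08 SE, adjusted p = 6.5e-06) after knockdown. Of 28 Polycomb genes 9 rose and 13 fell in Id1KO vs WT, and 13 rose and 8 fell after knockdown. Phc1, a subunit of Polycomb repressive complex 1, averaged 3.64 ± 0.08 in Id1KO_Zrf1KD cells, 4.43 ± 0.12 in Id1KO cells, and 3.31 ± 0.03 in WT cells (SD, n = 4 each). It was 2.18-fold higher (log2 difference 1.13 ± 0.06 SE, adjusted p = 3.7e-08) in Id1KO than in WT cells and 1.74-fold lower (log2 difference -0.8 ± 0.06 SE, adjusted p = 6.7e-07) after knockdown. Of 15 Trithorax genes 4 rose and 5 fell in Id1KO vs WT (2 and 8 in the deposited values, 3 and 9 under quantile normalization), and 7 rose and 3 fell in Id1KO_Zrf1KD vs Id1KO. Dpy30, a core subunit of the MLL methyltransferases, was 2.31-fold higher (log2 difference 1.21 ± 0.05 SE, adjusted p = 1.7e-09) in Id1KO than in WT cells and 2.16-fold lower (log2 difference -1.11 ± 0.05 SE, adjusted p = 4.2e-09) after knockdown.

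**Figure D3:**
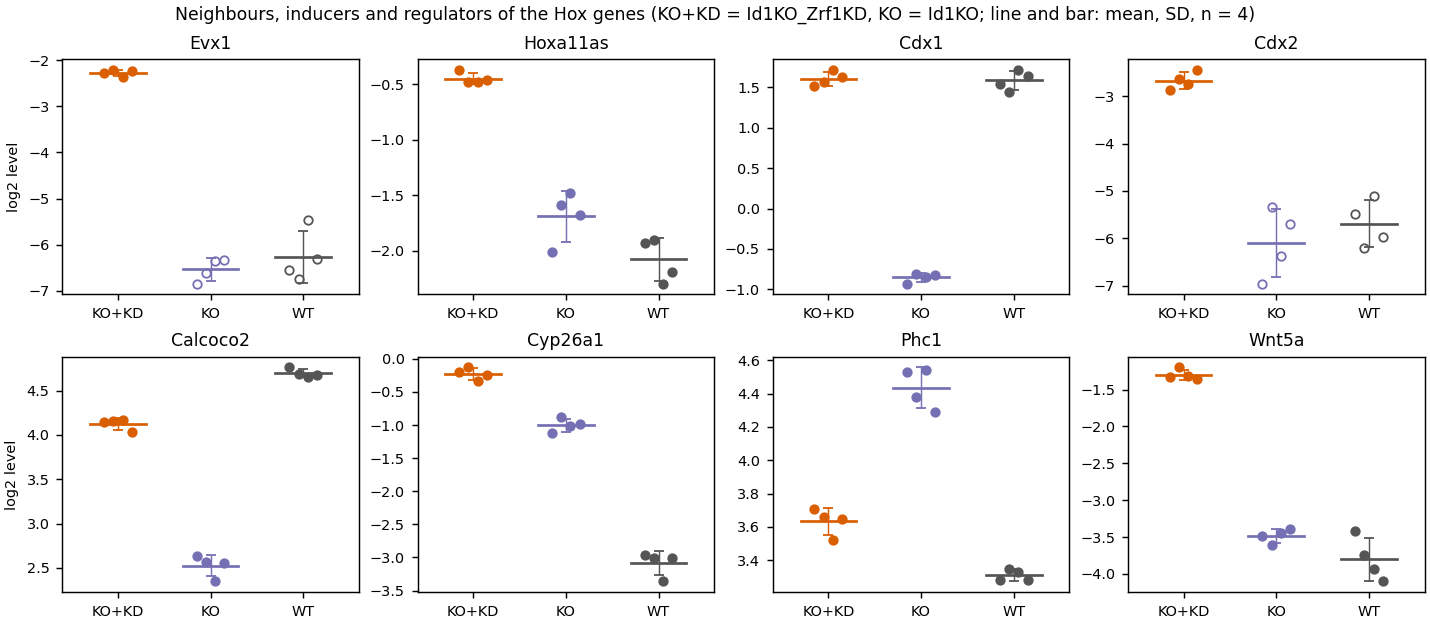
Level on each array (points), log2 relative to the 75th percentile, of 8 neighbours, inducers and regulators of the Hox genes in Id1KO_Zrf1KD (KO+KD), Id1KO (KO) and WT cells, with the mean and SD of 4 arrays. Open points belong to a group with no array well above background; Evx1 and Cdx2 are above background in Id1KO_Zrf1KD cells alone.

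Homeobox genes outside the clusters were counted in the same way. Of 31 tested, 8 rose and 17 fell in Id1KO vs WT, with a median log2 fold change of -0.63 (-0.12 with normexp, -0.27 in the deposited values). In Id1KO_Zrf1KD vs Id1KO 17 rose and 7 fell, with a median of 0.43, and with normexp 13 rose and 9 fell, with a median of 0.1. Pitx1, a hindlimb factor, was 11.2-fold lower (log2 difference -3.49 ± 0.1 SE, adjusted p = 1.8e-10, 3.26-fold at the smallest of the other scalings) in Id1KO than in WT cells and 6.59-fold higher (log2 difference 2.72 ± 0.1 SE, adjusted p = 1.6e-09, 2.17-fold at the smallest of the other scalings) after knockdown. Otx2, a head factor, was 6.71-fold higher (log2 difference 2.75 ± 0.05 SE, adjusted p = 1.2e-11) and 2.16-fold lower (log2 difference -1.11 ± 0.05 SE, adjusted p = 1.2e-08) in the same comparisons. Markers of fibroblasts also rose after knockdown. All 23 fibroblast markers tested rose in Id1KO_Zrf1KD over Id1KO cells and 20 were higher than in WT cells. Their summed level, in log2 units, was 7.41 to 7.49 in Id1KO_Zrf1KD cells, 5.67 to 5.79 in Id1KO cells and 5.84 to 5.92 in WT cells. Lum was the 1 fibroblast marker detected on no Id1KO and no WT array, and all 23 were detected on all 4 Id1KO_Zrf1KD arrays. In Id1KO vs WT 6 fibroblast markers rose and 13 fell. The summed level of 10 neural progenitor markers was 3.38 to 3.47 in Id1KO_Zrf1KD cells, 3.0 to 3.35 in Id1KO cells and 3.42 to 3.48 in WT cells, and that of 14 embryonic stem cell markers 9.18 to 9.23, 8.97 to 9.04 and 9.41 to 9.56 in the same order. The part of such cells in the Hox result was not tested.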

How the data were processed

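Total RNA was amplified, labelled with Cy3 and hybridised to Agilent one-colour arrays, per the labels' protocols. The deposited scanner files hold intensity values per spot from Feature Extraction 10.7.3.1, background-subtracted by that software, per the file headers, with coordinates in mm9. The authors also deposited log2 values per array, whose background correction and normalization are not given in the sources used here, and these served as an alternative. From the processed intensity, log2 values were taken relative to the 75th percentile of each array. Spots of a probe were averaged without outlier flags, a probe was kept where a share of 50% or more of its spots was well above background on each of the 4 arrays of some group (30879 of 55681), and the brightest probe stood for a gene. One limma 3.58.1 fit (R 4.3.3) over 22590 genes had a mean per group, with Benjamini-Hochberg adjustment and a threshold of 0.05. A test on simulated data with 100 genes changed at each size recovered 92% at a log2 change of 1 and 93% at 2, with 15 false calls over both (Id1KO vs WT, 22590 genes). The p-values measure the spread between these arrays, whose number limits the precision. Replicate numbers did not pair arrays: same-numbered arrays had a median correlation of deviations of -0.20 (-0.44 to 0.40). Values on each array are given for Hox genes with an adjusted p under 0.05, a log2 change of at least 1 and no overlap in Id1KO vs WT or Id1KO_Zrf1KD vs Id1KO. The rest are given by counts and ranges, with means where a call was lost, and up to 4 genes of each other list by smallest adjusted p. The members and lists were chosen with earlier results of these data known. A few items are not reported here.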

Additional observations from a re-analysis of the deposited data

Results flagged for a closer look

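Of 60 groups of 4 arrays examined for the named Hox genes, 3 had an array far from the others, and chance flags about 1 in 20 groups. Hoxb2 was -3.51 in Id1KO_Zrf1KD replicate 1, below the rest of its group. Hoxb9 was -2.64 and Hoxc13 -2.68 in Id1KO replicate 2, the first above and the second below the rest.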

How the results depend on the processing

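The counts of Hox genes called varied less than their median change. The median log2 fold change in Id1KO vs WT, -0.67, was -0.04 with normexp, -0.27 with the deposited values and -0.33 with no filter on dim probes, and -0.76 to -0.33 with 1 array left out. In Id1KO_Zrf1KD vs Id1KO, 0.46 became -0.04 with normexp, 0.73 under quantile normalization, 0.27 with the deposited values and 0.26 within slide 1, and 0.10 to 0.52 with 1 array left out. The ends at -0.33 and 0.10 were those without Id1KO replicate 1. In Id1KO_Zrf1KD vs WT, -0.46 was -0.17 with normexp and -0.09 with the deposited values. The count of Hox genes lower in Id1KO_Zrf1KD vs Id1KO, 8, was 5 under quantile normalization and also 5 in the deposited values. Hoxd9 in Id1KO_Zrf1KD vs Id1KO turned to -0.03 with normexp. The cause was not tested. With the replicate number as a block, 15 genes were higher and 7 lower in Id1KO_Zrf1KD vs Id1KO, and of the named genes the call of Hoxa10 in Id1KO_Zrf1KD vs WT was lost (adjusted p = 0.064). That call was also lost with normexp, quantile normalization, the deposited values, slide as a block, and without WT replicate 2 or Id1KO_Zrf1KD replicate 1 or 2. Without Id1KO replicate 1 Hoxd4 passed in Id1KO_Zrf1KD vs Id1KO (-0.66, adjusted p = 0.024), and without Id1KO_Zrf1KD replicate 3 Hoxb13 did (-0.30, adjusted p = 0.025). Hoxb5 in Id1KO_Zrf1KD vs WT was lost with normexp (adjusted p = 0.083) and Hoxd8 with quantile normalization (adjusted p = 0.063). Probes near background, the undetected groups given as bounds and the 4 arrays a group limit these values.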
